A study of Mus musculus with 10 samples.

Results

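Serpins are a superfamily of proteins, most of which trap and inactivate serine proteases, and a few of which act as chaperones, hormone carriers or signals without inhibiting a protease. The genes described here are all those whose symbol in the platform's gene annotation begins with Serpin, with the complement regulator Serping1 left out, with the brightest probe set, by mean over the 10 arrays, standing for each gene. There were 39 of them among the 18193 genes with a single symbol. The arrays measured total RNA from B6xBALB F2 mice, a cross in which alleles of both parent strains segregate. The cystic fibrosis knockouts, which lack the epithelial chloride channel gene Cftr, comprised 5 animals coded H (4 with the letter M, 1 with F) and 3 coded L (1 with M, 2 with F). The 2 controls, whose codes hold D and W, had 1 of each letter. The labels do not spell out H, L, D, W, M or F, and give no age and no name of the Cftr allele.

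A serpin acts like a spring: the protease cuts an exposed loop, the loop inserts into the body of the serpin, and the enzyme is dragged along and distorted. Family A holds the secreted antitrypsins and antichymotrypsins, best known as liver products in plasma, together with hormone and coagulation regulators. Family B holds intracellular serpins that guard leukocytes and epithelia against their own granule proteases. In the gut, leukocytes and the pancreas both supply serine proteases to the tissue and the lumen.

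Whole right lung is the labelled tissue, and the title of the series speaks of the intestine. The intestinal fatty acid binding protein Fabp2 had a mean intensity of 4679 over the 10 arrays, at percentile 99.7 of all genes. The surfactant gene Sftpc stood at 1972 and percentile 99, and the lung epithelium marker Scgb1a1 at 3309 and percentile 99.5. Alb, the defining liver product, stood at 13.6, near the level below which genes were not tested. Cftr was lower in all 8 knockouts (28.1 ± 6.63, SD, n = 8) than in both controls (134 ± 4.47, n = 2). Both controls fall in the lower of 2 ranges of title numbers, so differences between knockouts and controls, adjusted for range and letter, rest on the 3 knockouts and 2 controls of that range. Knockout H replicates 2 and 5 were the highest in lung epithelium markers, with summed intensities of 13951 and 11802, against 5363 and 5042 in controls 1 and 2.

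Of the 39 Serpin genes, 18 had a mean above the filter (an intensity of 13.6, the 25th percentile of genes) and were tested, among them 6 of 14 in family A, 7 of 18 in family B, 2 of 2 in family F, 1 of 2 in family I, and the single members of families D and H. The lowest mean among the tested was 14.2 and the highest among the others 12.9. The 21 that were not tested, antithrombin (Serpinc1) and the pancreatic Serpini2 among them, read between 3.82 and 17.2 on every array. At that level the arrays cannot show whether a gene is expressed. In whole tissue, fewer cells that make a transcript and less of it per cell cannot be told apart.

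In knockouts against controls, 1 of the 18 tested Serpin genes passed the threshold (limma, Benjamini-Hochberg adjusted p under 0.05 over all 13644 genes tested). This was Serpina1b, which fell. The share of 5.56% lies close to the 4.27% of all genes that passed, 2.76% lower and 1.51% higher, so the count does not set the Serpin genes apart. Their median log2 difference was -0.04, against -0.0048 for all genes. A log2 difference under 0.25 in size was seen for 14 of the 18. The share of all genes under 0.25 was not computed, so this count does not set the Serpin genes apart. The 16 added before taking logs also understates differences of dim members. Serpinb9b, for example, averaged 13.6 in knockouts and 16.5 in controls, with an adjusted log2 difference of -0.06. Serpinb5 and Serpina3n, with the largest positive differences, did not pass.

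**Figure D1:**
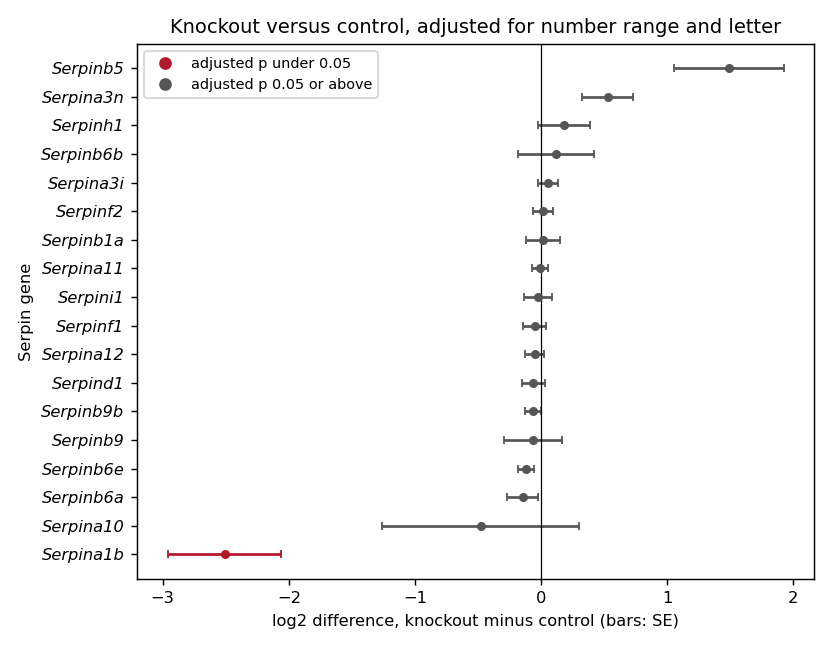
Log2 difference of knockout minus control with its SE for the 18 tested Serpin genes, on the log2(intensity + 16) scale and adjusted for number range and letter, ordered by size. Serpina1b at -2.51 is the single gene past the threshold, and Serpinb5 at 1.49 lies at the other end.

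Serpina1b is 1 of several neighbouring mouse copies of alpha-1-antitrypsin, the plasma inhibitor of neutrophil elastase. Its intensity was 92.2, 35.0, 30.2, 70.5 and 59.7 in the 5 knockout H animals and 25.01, 102.7 and 35.0 in the 3 knockout L animals, against 492.5 and 250.8 in the controls. All 8 knockouts lay below both controls, the nearest being knockout L replicate 2. Among all genes tested, 11.7% had all 8 knockouts below both controls and 10% had all above. The means were 56.3 ± 29.8 (SD, n = 8) in knockouts and 372 ± 171 (n = 2) in controls, and the log2 difference was -2.51 ± 0.45 (SE; limma adjusted p = 0.0215). Both the controls and the knockouts varied widely among themselves. The call was lost without either control (adjusted p = 0.227 and 0.117 in limma, with the lone control assumed to vary like the other groups), without knockout H replicate 4 (0.0627) and without knockout L replicate 3 (0.0567). The log2 difference lay between -2.98 and -1.90 over all 23 alternatives.

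The second probe set of Serpina1b read 43.2 ± 20.9 in knockouts (n = 8) and 269 ± 97.8 in controls (n = 2), again with all 8 knockouts below both controls. Both probe sets carry the suffix that marks probes able to match several transcripts, so signal from other Serpina1 copies cannot be told apart from that of Serpina1b. Serpina1c, whose mean fell under the filter, ranged from 8.32 to 12.7 in knockouts, against 17.2 and 15.9 in controls. The 2 probe sets assigned to several Serpina1 copies stayed below 10 on every array. Of 10 small intestine epithelium markers, Fabp2, Vil1 and Cdx2 passed the threshold as lower, while 4 of the 10 had positive differences and the median was -0.08. Their summed intensity, to which the brightest genes contribute most, was 28266 to 33116 in knockouts, against 34607 and 34776 in controls. Their part in the difference of Serpina1b was not tested. Of the liver markers, the defining products Alb, Ahsg, Fgb, Ambp and Hpx lay under the filter, and 0 of the 8 tested passed. Alb, dim throughout, read 12.3 ± 1.89 in knockouts (SD, n = 8) and 18.8 ± 4.26 in controls (n = 2), with all 8 knockouts below both controls. The summed liver markers were 4176 to 5479 in knockouts, against 4938 and 4544 in controls. That sum comes almost wholly from the 8 tested genes, so it does not reflect Alb and the other defining products. The part of liver transcripts in the Serpina1b difference was not tested.

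The 250 bases before the annotated start of Serpina1b and Serpinb5 are shown because these genes had the largest differences of either sign. They are from RefSeq, build GRCm38.p6, Serpina1b at chr12:103738190-103738439 on the minus strand and Serpinb5 at chr1:106860925-106861174 on the plus strand. Of the 39 genes, 34 matched an entry. Capitals mark matches, on either strand, to short motifs.
Serpina1b: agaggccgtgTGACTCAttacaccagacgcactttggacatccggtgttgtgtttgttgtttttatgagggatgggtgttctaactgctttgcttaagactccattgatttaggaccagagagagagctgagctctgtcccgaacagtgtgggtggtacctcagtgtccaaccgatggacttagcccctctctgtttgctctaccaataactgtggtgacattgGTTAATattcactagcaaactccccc
Serpinb5: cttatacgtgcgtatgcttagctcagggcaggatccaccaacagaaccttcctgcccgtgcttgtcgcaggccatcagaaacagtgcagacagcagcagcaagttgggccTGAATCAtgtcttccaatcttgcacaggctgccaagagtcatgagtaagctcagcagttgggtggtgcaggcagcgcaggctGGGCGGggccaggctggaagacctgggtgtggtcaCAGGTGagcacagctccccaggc

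The letters searched, on both strands, were GTTAAT for the core of the element of the hepatocyte factor HNF1, CAAAGTCCA for HNF4 and TATAAA for the box of that name. TTTATNG stood for the element of the intestinal CDX factors, GGGCGG for the box of Sp factors and CACCTG for an E-box. TGANTCA, with N any base, was a loose form of the AP-1 element, which has C or G at N. The Serpina1b window held the HNF1 core at positions -26 to -21 from the start and the AP-1 element at -240 to -234. The Serpinb5 window held TGAATCA, which meets only the loose AP-1 form, at -140 to -134. It also held the box of Sp factors at -58 to -53 and the E-box, on the opposite strand, at -23 to -18. The marked matches do not overlap one another. Over 27025 genes with such a window, the HNF1 core was found in 6.52%, the loose AP-1 form in 6.87%, the box of Sp factors in 32.9% and the E-box in 17.1%. A match is a description of letters and not evidence of binding. The Serpina1b window was 90.9% identical to that of Serpina1c, 88.0% to Serpina1a and 85.1% to Serpina1d over the aligned length, 64.2% to Serpina1e and 49.2% to Serpina1f.

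Serpinb5 encodes maspin, an epithelial serpin that does not act as a protease inhibitor. Its intensity was 154.8, 51.0, 214.3, 148.4 and 139.8 in knockout H and 164.0, 105.4 and 159.6 in knockout L, against 33.5 and 57.2 in the controls. Knockout H replicate 2 lay between the controls and the other 7 knockouts above both. The means were 142 ± 47.6 (SD, n = 8) and 45.4 ± 16.7 (n = 2), with a log2 difference of 1.49 ± 0.43 (limma adjusted p = 0.0951). Without knockout H replicate 2 the fit gave 1.52 and a limma adjusted p of 0.0105, with 815 of all genes passing. Within the lower number range alone it gave 1.48 and 0.00564, with 1033 passing, against 582 in the main fit. Serpinb5 passed in 4 of 25 alternatives, these included. Without knockout H replicate 4 it did not pass (limma adjusted p = 0.21). The log2 difference was 1.24 without control replicate 1 and 1.70 without control replicate 2. All 3 other probe sets of the gene had positive differences that did not pass in a limma fit of all probe sets (1.03, 0.70 and 0.62), and for 1 of them all 8 knockouts lay above both controls.

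**Figure D2:**
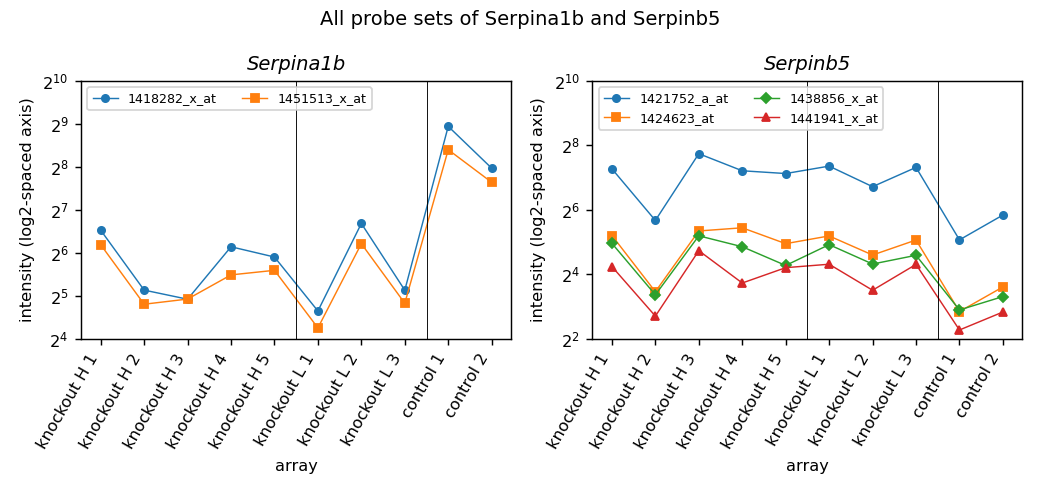
Deposited intensity of every probe set of Serpina1b (left) and Serpinb5 (right) on each array, on a log axis, with knockout H, knockout L and control arrays from left to right. The probe sets of a gene follow each other across arrays, and knockout H replicate 2 has the lowest Serpinb5 reading of the 8 knockouts.

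The arrays lowest in Serpinb5 were also the lowest in Paneth and goblet cell markers. The mean log2 deviation of those 13 genes was -0.25 in knockout H replicate 2, against -0.64 and -0.49 in the controls, while the other knockouts lay between -0.01 and 0.40. Knockout L replicate 2, with -0.01, also had the next lowest Serpinb5. Knockout H replicate 2 was also the highest in lung epithelium markers, with a mean log2 deviation of 1.06. Knockout H replicate 5, with 0.74, read 139.8 in Serpinb5, and the controls had -0.25 and -0.42. Stratified epithelium, where maspin is well known, gave a summed marker intensity of 319 to 379 in 6 knockouts, above both controls at 300 and 290. Knockout H replicate 2, at 251, and knockout L replicate 2, at 296, did not exceed both controls, and they were also the knockouts lowest in Serpinb5. In mean log2 deviation, the measure given first, the stratified list put knockout L replicate 1 (0.0011) and H replicate 5 (-0.0036) below control replicate 1 (0.0138) as well. Its sums are dim and include genes under the filter. Of the 8 tested markers of this list 6 had positive differences, 0 passed, and the median was 0.008. Its basal keratin Krt5 averaged 24.0 in knockouts and 24.9 in controls, the factor Trp63 15.0 and 15.96, and Krt1, Krt13 and Ivl lay under the filter. The part of these cells in the Serpinb5 values was not tested.

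Serpina3n is an antichymotrypsin-like serpin of the acute phase that inhibits leukocyte proteases. It read 29.4, 31.6, 61.1, 47.9 and 45.1 in knockout H and 44.2, 32.6 and 48.3 in knockout L, against 26.0 and 30.5 in the controls. Here 7 of 8 knockouts lay above both controls and knockout H replicate 1 between them. The log2 difference was 0.53 ± 0.20 and did not pass (limma adjusted p = 0.188). Serpina3n passed in 1 of 22 alternatives, the lower number range alone, with a log2 difference of 0.52 (limma adjusted p = 0.0225). That fit held 3 knockouts and 2 controls, and 1033 of all genes passed in it. The difference was 0.50 without control replicate 1 and 0.56 without control replicate 2. Serpina3i, of the same cluster, averaged 17.3 ± 1.81 in knockouts and 17.3 ± 0.69 in controls.

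Serpina10, the protein Z-dependent inhibitor of coagulation factor Xa, varied widely within the groups. It read 15.1, 209.6, 25.3, 26.7 and 49.2 in knockout H and 35.5, 19.6 and 17.8 in knockout L, against 86.1 and 25.9 in the controls. Knockout H replicate 2 was the highest, above control replicate 1, and the groups overlapped. The log2 difference was -0.48 ± 0.78 (limma adjusted p = 0.805) and turned to 0.65 without control replicate 1. A further 3 secreted members were dim and varied little. Serpina11 ranged from 20.8 to 26.0 in knockouts, against 25.9 and 24.4 in controls, and the adipokine vaspin, Serpina12, from 12.4 to 15.7, against 14.6 and 18.1. Heparin cofactor, Serpind1, an inhibitor of thrombin, lay between 14.0 and 19.1 in knockouts, against 19.1 and 14.8 in controls.

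**Figure D3:**
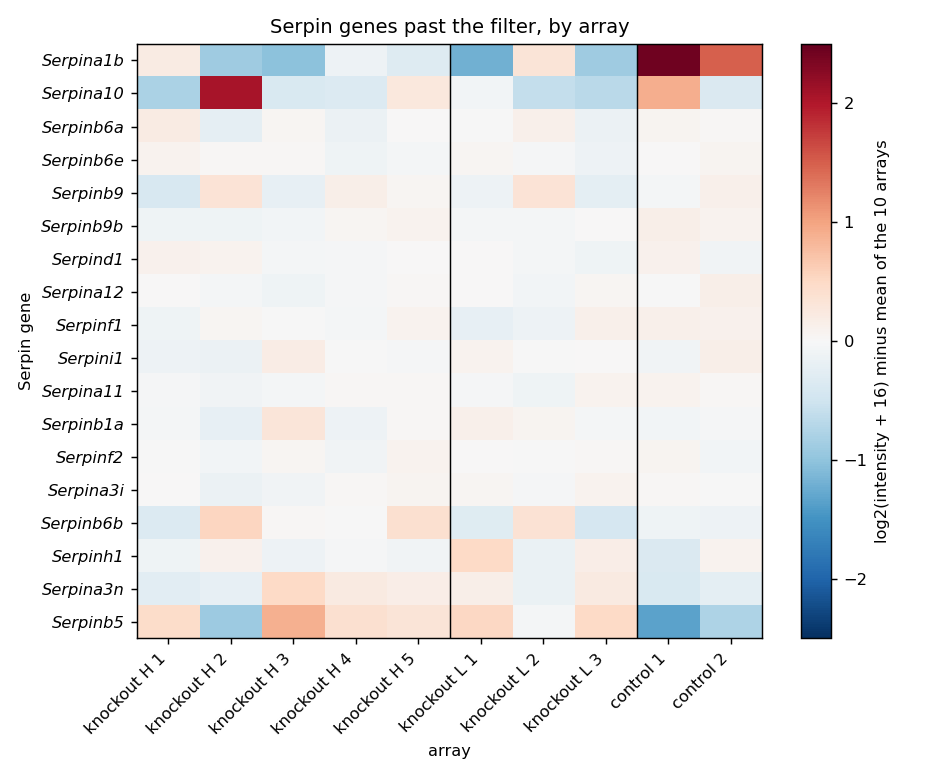
Log2(intensity + 16) minus its mean over the 10 arrays for each of the 18 tested Serpin genes (rows) in the 10 arrays (columns, knockout H, knockout L and control from left to right). Serpina1b is highest in both controls, Serpina10 in knockout H replicate 2, and most other rows stay near their mean.

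Neither bright member of family B passed the test. Serpinb1a, which blocks elastase and cathepsin G of neutrophils, read 1779 ± 202 in knockouts (SD, n = 8) and 1685 ± 30 in controls (n = 2), with a log2 difference of 0.02 ± 0.13 (limma adjusted p = 0.971). Serpinb6a, a broad inhibitor of trypsin-like proteases and cathepsin G, read 1999 ± 205 and 2084 ± 50.4, with a difference of -0.14 ± 0.12 (0.595). The ranges overlapped for both. Its relative Serpinb6e ranged from 30.1 to 37.5 in knockouts, against 34.4 and 36.7 in controls (-0.12 ± 0.06, limma adjusted p = 0.333). Serpinb9b, the dimmest tested member with a mean of 14.2, lay between 12.04 and 16.1 in knockouts, against 17.2 and 15.8 in controls. There 7 of 8 knockouts were below both, but the log2 difference was -0.06 ± 0.06 and did not pass (limma adjusted p = 0.677).

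Serpinb9, the inhibitor of the killer cell protease granzyme B, read 43.6, 83.8, 52.9, 71.8 and 66.1 in knockout H and 56.7, 83.4 and 50.9 in knockout L, against 60.2 and 70.2 in the controls. Serpinb6b, from the same cluster, read 27.5, 64.1, 40.2, 38.5 and 56.8 in knockout H and 28.8, 55.2 and 25.5 in knockout L, against 35.0 and 34.4 in the controls. Knockouts lay on both sides of the controls for each gene. Knockout H replicate 2 and knockout L replicate 2 had the highest Serpinb9, and with knockout H replicate 5 the highest Serpinb6b. The first 2 of these were also highest in T and killer cell markers, with mean log2 deviations of 0.46 and 0.65, against 0.29 and 0.21 in the controls, whereas knockout H replicate 5 had -0.09. The same 3 arrays were the highest in lung epithelium markers, with sums of 13951, 8826 and 11802, against 5363 and 5042 in the controls. Gzmb itself averaged 131 in knockouts and 177 in controls (-0.72 on the log2 scale, limma adjusted p = 0.678). The part of either marker list in the Serpinb9 and Serpinb6b values was not tested.

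**Figure D4:**
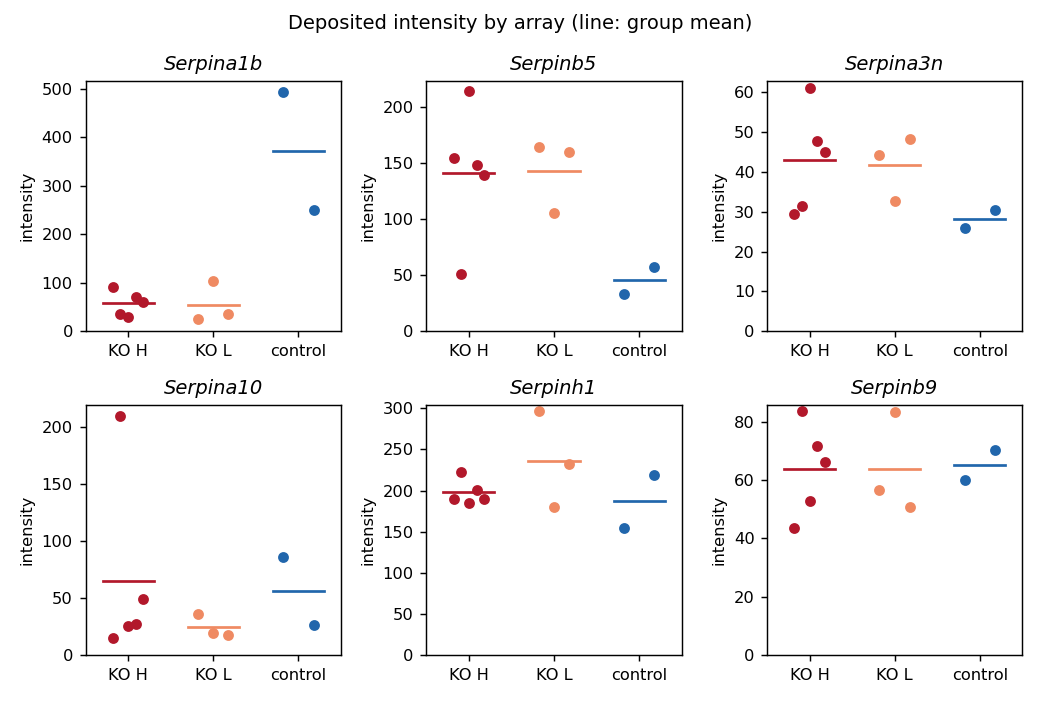
Deposited intensity of 6 Serpin genes on each array (points) with the group mean (line), for knockout H (n = 5), knockout L (n = 3) and control (n = 2), on linear axes from 0. Serpina1b separates both knockout groups from the controls, 1 knockout H array overlaps the controls for Serpinb5, and 1 stands alone for Serpina10.

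Serpinh1 is the collagen chaperone of the endoplasmic reticulum, not a protease inhibitor. It read 189.1, 222.8, 185.0, 201.2 and 190.1 in knockout H and 297.2, 180.2 and 231.7 in knockout L, against 154.8 and 219.2 in the controls. Knockouts and controls overlapped, with a log2 difference of 0.18 ± 0.20 (limma adjusted p = 0.699). Its highest knockouts, L replicates 1 and 3, had mean deviations of 0.29 and 0.32 in fibroblast and smooth muscle markers, against -0.48 and 0.27 in the controls, but knockout H replicate 3, with 0.36, was among the lowest in Serpinh1. The secreted pigment epithelium-derived factor, Serpinf1, which does not inhibit proteases, ranged from 34.9 to 48.0 in knockouts, against 47.7 and 47.6 in controls. Its log2 difference was -0.05 ± 0.09 (limma adjusted p = 0.824). The other probe set of Serpinf1 averaged 27.0 in knockouts and 24.1 in controls, with a log2 difference of 0.05. The plasmin inhibitor Serpinf2 ranged from 20.5 to 25.4, against 24.5 and 20.9. Neuroserpin, Serpini1, an inhibitor of tissue plasminogen activator, ranged from 16.5 to 24.9, against 17.7 and 23.8.

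Between knockout H and knockout L, 0 of the 18 Serpin genes passed in limma, as did 0% of all genes, and 1 of 18 had an unadjusted p under 0.05, against 2.23% of all genes. This was Serpinh1, at 198 ± 15.3 in H (SD, n = 5) and 236 ± 58.6 in L (n = 3), with a log2 difference of -0.39 ± 0.14 (limma adjusted p = 0.99982). The ranges overlapped. Over 21 alternatives the difference lay between -0.56 and -0.22. The other Serpinh1 probe set averaged 187 ± 32.7 in H and 215 ± 47.1 in L, and its ranges overlapped too. Serpina1b averaged 57.5 ± 25.6 in H and 54.2 ± 42.3 in L, and its difference of 0.59 ± 0.38, adjusted for range and letter, did not pass (0.99982). Serpind1 and Serpina12 differed by 0.10 ± 0.08 and -0.08 ± 0.06. A p above the threshold with 5 against 3 animals does not show equal levels.

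The letter M or F made no Serpin call either, with 0 of 18 past the threshold in limma, against 0.022% of all genes, and 2 of 18 with an unadjusted p under 0.05, against 4.83% of all genes. Serpina1b averaged 82.2 ± 86.3 with M (SD, n = 6) and 175 ± 213 with F (n = 4), a log2 difference of -0.89 ± 0.37 after adjustment for group and range (limma adjusted p = 0.934). The control with the letter F was the higher of both controls. Serpinh1 averaged 217 ± 42.4 with M and 192 ± 32.6 with F (0.35 ± 0.14, limma adjusted p = 0.934). Serpina12 and Serpinb6e differed by 0.10 ± 0.06 and 0.06 ± 0.06.

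Among the proteases that serpins control and other related genes, each list held 0 or 1 call between knockouts and controls, which at an array-wide share of 4.27% does not set these lists apart. Of the proteases of neutrophils, mast cells and killer cells, 0 of 14 tested passed (median log2 difference 0.03). Prtn3, a relative of elastase, and the mast cell chymase Cma1 had the smallest p, with -0.19 and 0.14. Elane, neutrophil elastase, the main target of alpha-1-antitrypsin, averaged 19.4 in knockouts and 19.9 in controls. Of the digestive proteases 0 of 8 passed (median -0.05), with 0.90 for the kallikrein Klk1 and 0.42 for the elastase Cela1. Among 19 membrane and secreted serine proteases 1 rose (median -0.02), the transmembrane protease Tmprss2, at 492 ± 87.6 in knockouts (n = 8) and 248 ± 0.36 in controls (n = 2), a difference of 1.02 (limma adjusted p = 0.0264). Coagulation and fibrinolysis genes had 1 of 17 higher (median -0.02), the urokinase receptor Plaur (0.43, limma adjusted p = 0.0388). Among 19 cathepsins and caspases 1 was higher (median 0.09), Casp6, with 0.58 (limma adjusted p = 0.0168). Protease inhibitors outside the family gave 0 of 24 (median -0.05), with the trypsin inhibitor Spink1 at -0.35 and the Kunitz inhibitor Spint1 at -0.35. Acute phase genes had 1 of 15 higher (median 0.26), the secreted glycoprotein Lrg1 (1.88, limma adjusted p = 0.0469), and 15 of 15 had positive values, against 48.7% of all genes, although 14 of them did not pass. Collagen folding partners of Serpinh1 had 1 of 18 lower (median 0.17), the lysyl hydroxylase Plod2 (-0.62, limma adjusted p = 0.0227). All these calls rest on the same 2 controls as that of Serpina1b.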

How the data were processed

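Oligonucleotide arrays of 10 samples were analysed. The deposited values are linear intensities of probe sets, judged from their range; how background was corrected and arrays scaled is not stated in the labels. Array medians were between 18.4 and 18.8, so no further normalization was applied. Arrays carry no read depth, and their number, above all the 2 controls, limits the precision. Of 45037 probe sets (64 array controls left out), 34945 had 1 symbol in the platform annotation, 932 several and 9160 none; 34741 symbols were updated through gene identifiers with RefSeq (GRCm38.p6). Probe sets with several symbols were left unnamed. Values were taken as log2(intensity + 16), which understates differences of dim genes. The 13644 genes with a mean above the 25th percentile entered linear models in R 4.3.3 with limma 3.58.1, holding number range and letter as covariates. The contrasts of H with L and of M with F used a model of 3 groups on all 10 arrays. Marker levels are sums of intensities, or means over genes of the log2 deviation from the 10-array mean. The fit was also run on simulated data with independent noise for each gene and no effect of range, letter or cell type share. That run checks the code and not the calls reported here. Files were read with the data.table package, promoters aligned with Biopython 1.88 and plots drawn with matplotlib 3.10.9.

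The members and gene lists were chosen with earlier results of these data known. Values by sample are given for Serpina1b, past the threshold, and for Serpinb5, Serpina3n, Serpina10, Serpinb9, Serpinb6b and Serpinh1. This choice did not follow the order of p: Serpinb6e, Serpinb6a and Serpinb9b had a smaller p than Serpinb9 and Serpinb6b. For each other comparison 4 members are named. Of each list, the members past the threshold or the 2 with the smallest p are named. Elane, Gzmb and single markers were added after their values were seen. Marker lists of 11 cell types gave 3 higher calls (Paneth and goblet cells), 1 higher (fibroblast and smooth muscle), 3 lower (small intestine epithelium) and 0 for the T and killer cell, endothelium, exocrine pancreas, liver, lung epithelium, mast cell, neutrophil and monocyte and stratified epithelium lists. Samples carry different title numbers and were treated as different animals, which no other label states; the spread behind each p-value may be technical.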

Additional observations from a re-analysis of the deposited data

Results flagged for a closer look

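Serpina10 read 209.6 in knockout H replicate 2, far from the other 4 knockout H arrays, with a gap to the nearest of 0.825 of the group's range against a critical value of 0.71 for 5 samples. It was the single such value among 18 Serpin genes examined in that group; chance alone marks about 1 group of values in 20.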

How the results depend on the processing

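The number of Serpin genes called in knockout versus control was 1 and stayed so in 14 of 22 alternatives. It was 2 without covariates and 2 without both arrays highest in lung markers (Serpina1b and Serpinb5, a setting chosen after seeing the data), 3 in the lower number range alone (with Serpina3n), and 0 to 2 when 1 array was left out. All genes called numbered 582, against 1367 without covariates, 1219 with the letter alone, 1033 in the lower number range alone, 121 without knockout H replicate 4, 191 without knockout L replicate 3, 263 without knockout H replicate 5, 0 without control replicate 1 and 57 without control replicate 2; the fits that leave out an array or a range hold fewer samples. Serpinb5 passed in 4 of 25 alternatives (log2 difference 0.62 to 1.81). Serpina3n passed in 1 of 22. Differences that did not pass changed sign for Serpinb1a, at -0.0114 without both lung-high arrays; with 1 array left out, the ranges were -0.0361 to 0.052 for Serpinb1a, -0.0322 to 0.38 for Serpinh1 and -1.43 to 0.65 for Serpina10. The cause of these changes was not tested. The Serpin genes with a log2 difference under 0.25 numbered 14 for knockout versus control, 13 for H versus L and 15 for the letter, of 18. Without the filter they numbered 34, 34 and 36 of 39, and with the filter at the median of genes 7, 6 and 8 of 11. The share of all genes under 0.25 was not computed for any of these. H versus L and the letter called 0 Serpin genes in all 21 and 19 alternatives. For the letter, 3 genes passed in all, and 5 without covariates and 5 with the mean of all probe sets. No paired analysis was possible because the labels give nothing that pairs a knockout with a control. Most Serpin genes are dim, and small differences between them and background cannot be seen on these arrays.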
